A study of Mus musculus with 22 samples.

Results

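The regions described here are C/EBP beta peaks that lay inside genes and were called after dDAVP and not after vehicle. A C/EBP beta peak of the dDAVP list was taken when it overlapped no peak of the C/EBP beta vehicle list, when its centre lay inside a RefSeq protein-coding gene, and when that centre was more than 1000 bp from every protein-coding gene end. This gave 887 sites, out of 2192 dDAVP-only peaks, 2401 C/EBP beta peaks after dDAVP and 3801 peaks in all 4 lists of the study. The sites were thus chosen by their calls, present in the dDAVP list and absent from the vehicle list, and by their place in genes, and none of these is a finding about them.

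The study mapped binding of CREB1 and C/EBP beta by chromatin immunoprecipitation and sequencing (ChIP-seq) in clone 11 of mpkCCD, an epithelial cell line from the mouse cortical collecting duct. Cells were grown on permeable supports in a complete medium with dialyzed serum, insulin, dexamethasone, triiodothyronine and epidermal growth factor, and all groups were then kept in medium free of serum and hormones before treatment. They received dDAVP, an analog of vasopressin selective for the V2 receptor, at 0.1 nM, or vehicle, and were harvested after 30 min. The labels describe 22 samples: 4 CREB1 and 2 C/EBP beta immunoprecipitations per treatment, and 10 inputs without antibody. Each antibody and treatment is represented by 1 deposited peak list, so no value below has a replicate error, and depth is unknown. A site outside a list was not called there and may still have been bound. The line is 1 clone, and peak lists hold no expression by which its cell type could be checked.

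C/EBP beta is a basic leucine zipper factor that binds DNA as a homodimer, or as a heterodimer with other C/EBP proteins or with ATF family members such as ATF4. It is known for acute phase, metabolic and stress responses, and it is itself phosphorylated downstream of several kinases. Much of the binding of such factors in differentiated cells falls at enhancers within introns, far from promoters. In the collecting duct, vasopressin acts through the V2 receptor, cAMP and protein kinase A, and CREB1 is the classical nuclear target of that kinase.

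Sequence was at hand for RefSeq start windows alone, which run from 250 bases before to 50 after an annotated transcript start. Some genes have several starts, so a window can lie inside a gene. Of 871 sites on chromosomes with windows, 32 overlapped a window (3.67%, 95% Wilson interval 2.61 to 5.14), and 22 of them touched a window of the gene that held the site. These sites are inside the gene by its outer ends and at an internal start by RefSeq. The stretches shown next are the parts upstream of such internal starts that lay within a site, given 5′ to 3′ on the strand of the gene (RefSeq, GRCm38.p6, which is mm10). They were chosen after their letters were seen, mostly because they hold letters marked in capitals. They therefore do not show what sites at starts hold in general. Of the 34 windows that the sites overlapped, 15 held the C/EBP letters. The windows of Apba3 and Pafah1b2, for example, held none of the letters and are not printed. Capitals mark the C/EBP letters TTGCNNAA (TTNNGCAA on the opposite strand), the composite C/EBP-ATF letters TGATGCAA (TTGCATCA) and the CRE letters TGACGTCA, to which CREB1 and ATF factors bind.
Per1, chr11:69098751-69098948, plus strand: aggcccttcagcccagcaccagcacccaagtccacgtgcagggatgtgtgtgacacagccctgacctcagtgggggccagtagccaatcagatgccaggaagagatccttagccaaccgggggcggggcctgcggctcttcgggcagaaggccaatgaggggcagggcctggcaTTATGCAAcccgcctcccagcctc
Cers2, chr3:95318598-95318829, plus strand: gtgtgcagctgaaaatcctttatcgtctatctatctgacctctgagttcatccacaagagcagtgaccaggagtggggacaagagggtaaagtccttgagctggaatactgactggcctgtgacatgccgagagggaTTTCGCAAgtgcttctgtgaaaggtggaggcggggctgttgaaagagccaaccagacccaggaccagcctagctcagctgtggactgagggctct
Bmf, chr2:118547600-118547775, minus strand: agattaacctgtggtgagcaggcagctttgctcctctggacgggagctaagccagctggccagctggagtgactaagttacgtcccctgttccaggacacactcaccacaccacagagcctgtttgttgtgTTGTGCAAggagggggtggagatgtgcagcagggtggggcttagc
Dram1, chr10:88357121-88357302, minus strand: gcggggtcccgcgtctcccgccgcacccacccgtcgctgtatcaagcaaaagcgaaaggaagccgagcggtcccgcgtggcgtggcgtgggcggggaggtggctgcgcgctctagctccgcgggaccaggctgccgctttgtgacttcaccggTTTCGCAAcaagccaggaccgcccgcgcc
Lmbrd1, chr1:24678294-24678498, plus strand: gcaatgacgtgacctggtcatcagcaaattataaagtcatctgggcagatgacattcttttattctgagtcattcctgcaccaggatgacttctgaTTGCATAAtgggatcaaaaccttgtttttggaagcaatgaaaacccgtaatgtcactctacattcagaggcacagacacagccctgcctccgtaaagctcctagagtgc
Slc25a25, chr2:32424067-32424287, minus strand: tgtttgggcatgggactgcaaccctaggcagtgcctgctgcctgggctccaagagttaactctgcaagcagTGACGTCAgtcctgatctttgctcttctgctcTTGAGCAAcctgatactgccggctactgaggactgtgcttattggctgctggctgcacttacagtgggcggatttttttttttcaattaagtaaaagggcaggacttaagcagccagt
Slc7a11, chr3:50443614-50443841, minus strand: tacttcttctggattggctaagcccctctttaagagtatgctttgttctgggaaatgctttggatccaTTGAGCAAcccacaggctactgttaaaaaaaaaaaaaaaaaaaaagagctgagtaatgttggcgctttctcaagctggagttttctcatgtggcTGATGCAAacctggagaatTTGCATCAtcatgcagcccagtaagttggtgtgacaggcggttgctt
Clcn3, chr8:60954800-60954926, minus strand: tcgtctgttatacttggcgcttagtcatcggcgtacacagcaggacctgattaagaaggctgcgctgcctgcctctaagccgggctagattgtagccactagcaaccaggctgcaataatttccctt

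Per1, a repressor of the circadian clock, held a site of score 601 whose centre was 29 bp from an internal start, and the C/EBP letters begin 24 bases before that start. Cers2, a ceramide synthase of long acyl chains, had a score of 430, Bmf, a pro-apoptotic BH3 protein, 220, and Dram1, a p53 target of autophagy, 139. Slc25a25, a mitochondrial carrier of ATP and phosphate, had both a C/EBP and a CRE sequence in its site of score 192. Slc7a11, the cystine and glutamate exchanger that ATF4 is known to induce, had TTGAGCAA and a pair of C/EBP-ATF composites facing each other, at a low score of 70. Clcn3, a chloride and proton exchanger of endosomes, is shown as a site whose start window held none of the letters. Its score was 197, with the centre 1.5 bp from the start. The part of that site outside the window was not searched. Here and below the score is the authors' own value per peak, deposited without a stated scale.

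The letters TTGCNNAA, searched on both strands, stood in 15 of the 34 windows that the sites overlapped (44.1%, 28.9 to 60.5). The 34 windows belonged to 32 sites, and letters were counted over the whole window, also outside the site. In the windows of Gm30890, Arhgap32 and Kcnk13 they lay outside the part of the site upstream of the start. Of all 32851 start windows, 10.8% held the letters. The share was 31.6% of 247 windows at dDAVP-only peaks of gene ends, 62.2% of 45 windows at C/EBP beta peaks found in both lists, and 7.83% of 856 windows at CREB1 vehicle peaks. The palindrome TTGCGCAA, a special case of TTGCNNAA, was in 0 of the 34 windows (0 to 10.2%). It was in 4.05% of windows at dDAVP-only peaks of gene ends, in 33.3% at peaks found in both lists and in 0.183% of all windows. The composite TGATGCAA, which shares no full match with TTGCNNAA, stood in 1 of the 34 windows, that of Slc7a11, and in 0.895% of all windows. TGACGTCA stood in 2 of the 34 windows, those of Slc25a25 and Lmbrd1, with 1.79% in all windows and 23.0% at CREB1 vehicle peaks. In the Lmbrd1 window it lay outside the stretch printed above. The AP-1 letters TGAGTCA, which are not capitalised, stood in 3 of the 34 windows (8.82%), with 5.2% in all windows. A match of letters is no measured site, and the other 855 sites touched no window and were not searched.

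The sites scored near the middle of their list and below the peaks found in both lists. Scores of the 887 sites ran from 30 to 1731, with a median of 169 and quartiles of 107.5 and 295, and the whole dDAVP list had a median of 197. Peaks found in both lists had a median of 1104 in the dDAVP list, and the lowest of them was 273. Only 4 of the sites reached 1104, while 242 reached 273. The other dDAVP-only peaks had similar scores, with medians of 191 at gene ends (427 peaks), 187.5 between genes within 50 kb (632 peaks) and 170 farther away (246 peaks). The median width of the sites was 253 bp, with a range of 127 to 512 bp, and that of peaks found in both lists 398 bp.

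**Figure D1:**
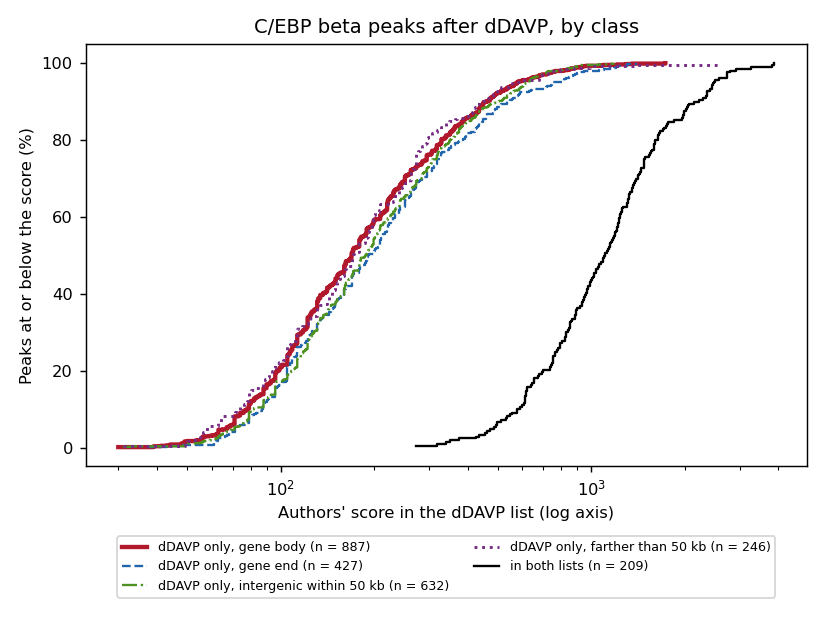
Cumulative share of peaks in the C/EBP beta dDAVP list (vertical axis, percent) at or below each score (horizontal axis, log scale, the authors' unit), 1 line per class of peak. The gene body line, median 169, runs close to the other dDAVP-only lines, and the line of peaks found in both lists, median 1104, lies to the right.

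Presence in the vehicle list followed the score among peaks inside genes. Below a score of 200, 0 of 524 gene body peaks of the dDAVP list were also in the vehicle list. From 200 to 500 the count was 7 of 301 (2.33%), from 500 to 1000 it was 33 of 96 (34.4%), and from 1000 upward 38 of 44 (86.4%). By the same bands the 887 sites divide into 524 below 200, 294 from 200 to 500, 63 from 500 to 1000 and 6 above. Since the rule used the vehicle list, these counts are a description. The names in the vehicle list numbered replicate 1 peaks up to 329 and those in the dDAVP list up to 2707. The depth of the libraries and the yield of the immunoprecipitations were not analysed here.

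The highest score, 1731, belonged to a site in Smad3, the receptor-regulated transducer of TGF-beta (chr9:63716180-63716539), 41.6 kb from its start. A site in Arhgef28, a guanine nucleotide exchange factor, followed with 1349 (chr13:98012025-98012405), and one in Gse1, which encodes a coiled-coil protein, with 1287 (chr8:120529193-120529537). Gpsm1, a regulator of Gi proteins, held a site of 1211 (chr2:26325809-26326136). Pdcd4, an inhibitor of translation initiation, and an overlapping gene model shared a site of 1092, and Oxsm, an enzyme of mitochondrial fatty acid synthesis, held one of 1061. The next 6 were in Nuak2, an AMPK-related kinase (959), Ldah, a hydrolase of lipid droplets (935), Tnk2, a tyrosine kinase that binds Cdc42 (935), Lrba, a BEACH domain protein of vesicle traffic (916), Tpd52 (887) and Wdr70 (885). None of these 12 sites overlapped a CREB1 peak. Over all 887 sites only 7 did (0.789%), so this is no trait of the strongest sites. Whether a site lay in an exon or an intron is not known, because the gene table gives outer ends alone.

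At the edges of the rule, sites in Frrs1 (score 477) and Aebp1 (169) lay 1009.5 and 1013 bp from a gene end and were kept. Peaks at Fstl3 and Prss57 (170) and in Suco (295), at 983.5 and 982 bp, were left out. The sites nearest to a vehicle peak were in Eml4, 279 bp away (score 63), and Wdr20, 584 bp away (171). Within 1000 bp of a vehicle peak there were 3 sites, and within 10 kb there were 10. The median gap to a vehicle peak was 3.01 Mb.

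The sites made up 40.5% of the dDAVP-only peaks (38.4 to 42.5). Gene interiors, meaning gene bodies without the outer 1000 bp, take 37.9% of the span between the outermost genes of the chromosomes, 987 of 2600 Mb. Of the other dDAVP-only peaks, 19.5% lay at gene ends, 28.8% between genes within 50 kb and 11.2% farther away. The gene body share was 37.3% of the 209 peaks in the C/EBP beta vehicle list. It was 9.07% in the CREB1 vehicle list and 7.92% in the CREB1 dDAVP list. The share moved with the width of the end zone, from 44.3% with 500 bp to 31.7% with 5000 bp.

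The rule fixed a distance of over 1000 bp from every gene end, so the distances are a description. The median distance to the nearest gene end was 20.1 kb, with quartiles of 6.31 and 49.5 kb, and 86 sites lay over 100 kb from every end. They fell in 770 host genes, which is 4.01% of the 19190 protein-coding genes over 2000 bp long that could hold one. Since the rule chose the sites by their place in genes, this share is a description. Host genes had a median length of 87.4 kb, against 21.3 kb over all 19190 genes. The share of genes with a site rose with length, from 0.717% of genes of 2 to 10 kb to 17.4% of genes over 300 kb. Per Mb of gene interior the order was the opposite, with 2.04 sites in the shortest genes, 0.994 in genes of 100 to 300 kb and 0.45 in the longest.

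**Figure D2:**
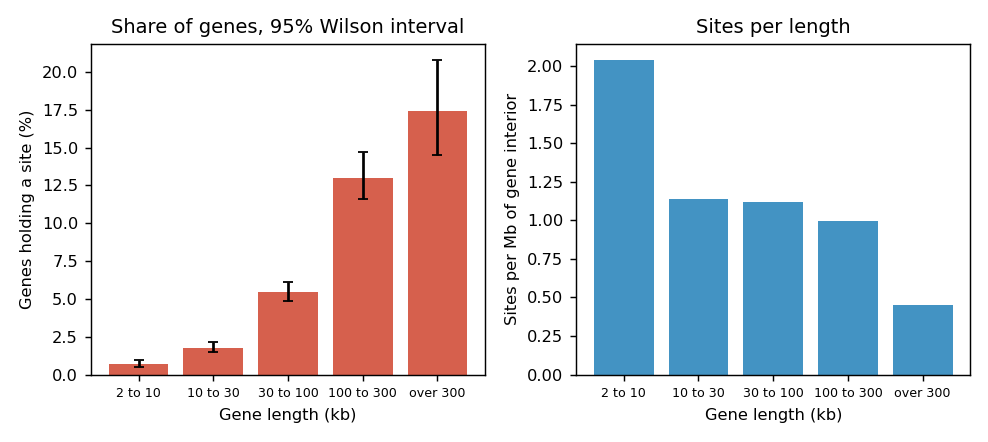
Left, percent of protein-coding genes with at least 1 site in each band of gene length (kb), with 95% Wilson intervals. Right, number of sites per Mb of gene interior in the same bands, without error. The left bars rise from 0.717% to 17.4%, and the right bars fall from 2.04 to 0.45.

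Along the gene the sites leaned toward the start. Among 728 pairs of a site and a host gene whose strand was known, 60.4% lay in the 50% of the gene's length nearest the start (56.8 to 63.9). Divided into 4 equal parts from start to end, the genes held 30.6%, 29.8%, 22.0% and 17.6% of the pairs. With an end zone of 5000 bp in place of 1000 bp, the first 25% of the length held 23.2% and the first 50% held 56.9%. A wider zone takes sequence mainly from the outer parts of genes, so this fall cannot show what the lead of the first 25% rested on. In genes over 300 kb the first 50% held 50.4% (41.6 to 59.2, 119 pairs). Gene body peaks found in both lists had 55.6% in the first 50% (43.3 to 67.2, 63 pairs). CREB1 vehicle peaks inside genes had 93.8% there (85.2 to 97.6, 65 pairs), at a median of 2.8 kb from the start, where the median of the C/EBP beta sites was 34.1 kb.

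**Figure D3:**
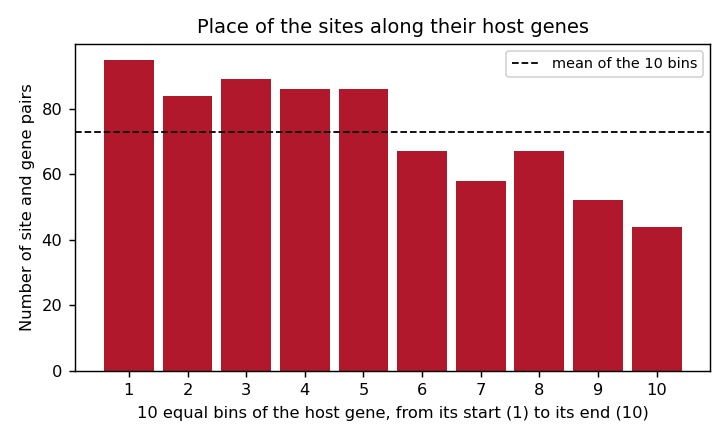
Number of pairs of a site and a host gene (vertical axis) in each of 10 equal bins of the gene from start to end (horizontal axis), for 728 pairs with a known strand. The dashed line is the mean of the bins. The first 5 bins hold 84 to 95 pairs each and the last 5 hold 44 to 67.

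Most host genes, 660 of 770, held a single site, 95 held 2, and 15 held 3 or 4. In the upper 50% of scores, 28 of 350 hosts held 2 or more. Gse1 (353 kb) had scores of 387, 71, 1287 and 717 at 14.9, 217, 301 and 310 kb from its start. Mecom, a zinc finger transcription factor gene (558 kb), had 122, 124, 105 and 153 at 2.3, 263, 404 and 533 kb. Mecom's sites were thus all weak and spread over the whole gene, while in Gse1 the strongest pair stood 9.51 kb apart.

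Arhgef28 added sites of 141 and 88 to its main one, at 95.5 and 295 kb. Itpr1, the inositol trisphosphate receptor that releases calcium from the endoplasmic reticulum, had 679, 150 and 295. Lpp, a LIM protein of focal adhesions, had 221, 125 and 592 at 481, 527 and 541 kb of its 599 kb. Iqschfp and Schip1 overlap and share 3 sites, of scores 189, 492 and 90, within 29.3 kb. Rbms3, an RNA-binding protein, had 519, 105 and 76. App, the amyloid precursor, had 171, 65 and 451 within 41.5 kb of its start. Slc25a25, named after its values were seen because its internal start is shown above, had 3 sites in a gene of 37 kb, with scores of 262, 192 and 122. Over all genes, 128 neighbouring pairs within 1 gene had a median spacing of 35.1 kb, and 28 stood within 10 kb of each other.

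**Figure D4:**
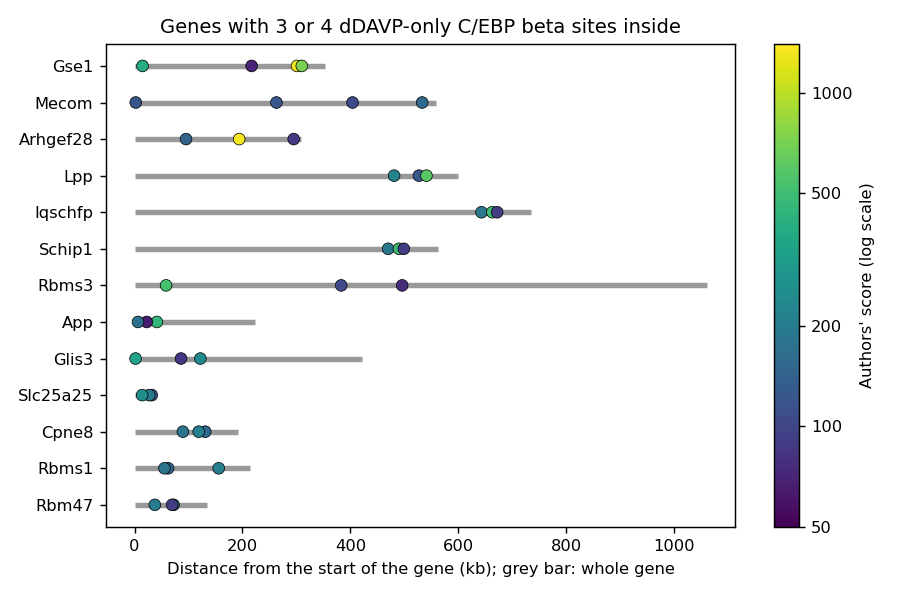
Sites (points, coloured by the authors' score on a log scale) along 13 genes of known strand with 3 or 4 sites, by distance in kb from the gene's start (horizontal axis); grey bars give each gene's length. Lpp, Iqschfp and Schip1 carry their sites together near the far end, App near the start, and Mecom from end to end.

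Few of the sites overlapped a CREB1 peak, and few CREB1 peaks lay where the sites could be. The rule left out gene ends. Of placed CREB1 peaks, 71 of 783 in the vehicle list and 32 of 404 in the dDAVP list lay in gene interiors. The low share is therefore a description, as is its contrast with gene ends. Of 887 sites, 7 overlapped a CREB1 peak (0.789%, 0.383 to 1.62), all of them in the vehicle list and 2 also in the dDAVP list. At gene ends 33 of 427 dDAVP-only peaks did so (7.73%, 5.56 to 10.7), and between genes within 50 kb 5 of 632 (0.791%). Farther away it was 0 of 246. Among C/EBP beta peaks found in both lists it was 5 of 209 (2.39%), and 0 of 78 for those inside genes. The site in Tiam1, an exchange factor for Rac (chr16:90098116-90098385, score 413), lay in both CREB1 lists, as did one in Dcaf11, an adaptor of a ubiquitin ligase (79). Lmbrd1, which exports cobalamin from lysosomes, held the one shown above (199). Uggt2, a glucosyltransferase of glycoprotein folding, had 71. The other 3 were in gene models of 1 region of chromosome 6, Gm40365 (199), Gm40363 (172) and Gm36327 (167). The count of 7 was 4 without such gene models, 4 and 2 with end zones of 2000 and 5000 bp, and 3 in the upper 50% of scores.

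Host genes were also examined for CREB1 at their ends, a measure the rule did not use. A CREB1 vehicle peak lay within 1000 bp of an end of 24 of the 770 hosts (3.12%, 2.1 to 4.6), and of 4.3% of all genes over 2000 bp. For the CREB1 dDAVP list the counts were 13 hosts (1.69%, 0.989 to 2.87) and 2.29% of all genes. Within genes of 100 to 300 kb the vehicle shares were 3.28% of hosts and 2.35% of all genes. The shares were near the background, so this is no result about the hosts. The count of 24 was 37 with an end zone of 500 bp and 13 in the upper 50% of scores. Among the 24, named after their values were seen, Ldah, Wdr70 and Per1 had the best C/EBP beta scores, and Rab11b, a GTPase of recycling endosomes, had 472.

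Host genes were also examined for C/EBP beta peaks of other classes. A peak found in both lists lay in the body of 21 hosts (2.73%, 1.79 to 4.13), while 0.412% of all genes had one. Long genes hold more of both kinds of peak. Within genes of 100 to 300 kb the shares were 4.51% of 244 hosts and 1.5% of all genes. These hosts, named after their values were seen, include Baiap2, a scaffold of actin protrusions, Nfe2l2, the oxidative stress factor NRF2, Mbnl1, a splicing regulator, Map3k5, a stress kinase of the MAP kinase cascade, and Rxra, the retinoid X receptor. A dDAVP-only peak at a gene end was found in 27 hosts (3.51%, 2.42 to 5.05) and in 2.43% of all genes, just above the interval's lower limit. Within genes of 30 to 100 kb the shares were 2.53% of hosts and 2.6% of all genes. They were 2.63% and 2.34% in genes of 2 to 10 kb, and 6.14% and 2.69% in genes of 10 to 30 kb. In genes of 100 to 300 kb they were 2.87% and 1.55%, and in genes over 300 kb 5.15% and 1.8%. Per1, Mapk14, which encodes the p38 kinase, Atf7, Bmf and Bcl6 were among the 27 hosts. None of these shares was tested, and the peaks come from the same dDAVP list as the sites.

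A set of 19 gene lists placed the hosts by function. Each list is given with the share of its genes over 2000 bp that held a site, and with the share of all genes in the same bands of length. Intervals cover the counting of genes alone, and no list was tested. The lists were chosen with earlier results of these data known, so a higher share is no independent support for a function. Every list of function except the cAMP list had a share above that of all genes of like length. A higher share was thus not particular to the lists described below. The best score of a host gene had a median of 179 over all 770 hosts and of 194.5 over the 82 hosts in any list.

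Cell junction and polarity genes had 7 of 52 (13.5%, 6.68 to 25.3, against 7.98%). These included Tjp1, the tight junction scaffold ZO-1 (448), Magi1 (435), Lmo7 (251), Mpp5, the polarity protein PALS1 (209), and Ptprf (201). Integrin and matrix genes had 7 of 49 (14.3%, 7.1 to 26.7, against 7.77%), led by Mmp14, a membrane metalloproteinase (382), and Itgb8 (361), an integrin subunit that activates latent TGF-beta.

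Growth factor receptors and the MAP kinase cascade had sites in 12 of 58 genes (20.7%, 12.3 to 32.8), with 6.44% of all genes of like length and a median best score of 161. Map3k1 led with 748, followed by Mapk14 (306), Map3k5 (242), Gab1, an adaptor of receptor tyrosine kinases (230), and Insr, the insulin receptor (220). The epidermal growth factor receptor Egfr had a site of 160 at 1.63 kb from its start. TGF-beta, Wnt, Notch and Hippo signalling had 8 of 55 (14.5%, 7.56 to 26.2, against 7.69%). After Smad3 these were led by the receptor Notch2 (382), Wwc1, the Hippo regulator KIBRA (156), the Wnt antagonist Apc (152) and Notch1 (150).

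Circadian clock genes had 6 of 22 (27.3%, 13.2 to 48.2), with 4.78% of all genes of like length and a median best score of 387.5. They were Per1 (601), Nfil3 (548), Cry1 (415), Bhlhe40 (360), Arntl, which encodes BMAL1 (329), and Per2 (198), so that the activator BMAL1 and several repressors were all present. Glucocorticoid-responsive genes had 4 of 26 (15.4%, 6.15 to 33.5, against 3.79%): Per1, Bcl2l1, the survival factor BCL-XL (474), Zbtb16 (199) and Tsc22d3, which encodes GILZ (96). Per1 is in both lists.

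The list of C/EBP, AP-1, ATF and small Maf factors and related leucine zipper proteins had 5 of 40 (12.5%, 5.46 to 26.1, against 3.32%), with a median best score of 533. The site in Nfe2l1, a stress factor that induces proteasome genes, scored 763, that in Nfil3, a PAR-related repressor, 548, and that in Nfe2l2 533. Atf7 (220) and Creb3l1, a factor of the endoplasmic reticulum membrane (71), followed. Of these hosts, Atf7 alone belongs to a family in the list's name, and none is a C/EBP or small Maf gene. The ATF4 and amino acid response list had 6 of 49 (12.2%, 5.73 to 24.2, against 3.21%). Slc7a5, the leucine transporter LAT1 (734), and its partner subunit Slc3a2 (159) both held a site. Gdf15, a stress-induced cytokine (220), the synthetase Eprs (129), Slc7a11 (70) and the cationic amino acid transporter Slc7a1 (49) made up the rest.

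Epithelial and kidney transcription factors had 9 of 56 (16.1%, 8.69 to 27.8, against 6.09%). Grhl1, a grainyhead factor of epithelia, scored 637, Tfap2a 393, Rxra 220, Klf3 191 and the repressor Bcl6 178. Lipid and glucose metabolism had 8 of 58 (13.8%, 7.16 to 24.9, against 5.68%), led by Mgll, the monoglyceride lipase (720), Acsl5, an acyl-CoA synthetase (315), Sgms1 (161), Elovl6 (134) and Osbpl10 (122). Inflammation genes had 4 of 48 (8.33%, 3.29 to 19.6, against 3.48%): Irak2, a kinase of interleukin 1 signalling (448), Nfkbiz (334), the receptor Il1r1 (168) and Il6 (122).

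For the cAMP, collecting duct transport and vesicle traffic lists, all close to vasopressin signalling, the share of all genes of like length lay inside the interval. The same held for the junction, integrin, TGF-beta and inflammation lists above, so it was not particular to the vasopressin lists. The cAMP and protein kinase A list had 1 of 44 (2.27%, 0.402 to 11.8), where all genes of like length had 9.53%, inside that interval. That gene was Pde4d, a cAMP phosphodiesterase, with 2 sites and a best score of 295. Collecting duct transport had 3 of 34 (8.82%, 3.05 to 23.0, against 6.62%). They were Fxyd4, a regulator of the sodium pump (242), Scnn1b, the beta subunit of the epithelial sodium channel (220), and Nedd4l, the ubiquitin ligase that removes that channel (209). Vesicle traffic had 3 of 41 (7.32%, 2.52 to 19.4, against 7.11%), namely Lrba, Sipa1l1 (286) and Exoc4, a subunit of the exocyst (93).

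Among short lists of cell markers, 2 of 10 principal cell markers held a site (5.67 to 51.0%, against 3.09%). These were Scnn1b and Fxyd4, both already counted under collecting duct transport. For principal cells the background share lay below the interval, which rested on these 2 genes. The count was 0 of 10 for intercalated cells (0 to 27.8%, against 2.78%) and 0 of 10 for proximal tubule (0 to 27.8%, against 5.03%). For the thick ascending limb it was 0 of 8 (0 to 32.4%, against 3.36%). The background shares lay inside the intervals of these lists without a site. Fibroblasts and endothelium had 1 of 12 (1.49 to 35.4%, against 6.02%), at Tek, the angiopoietin receptor (160). A site in a marker gene is no measure of its expression.

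**Figure D5:**
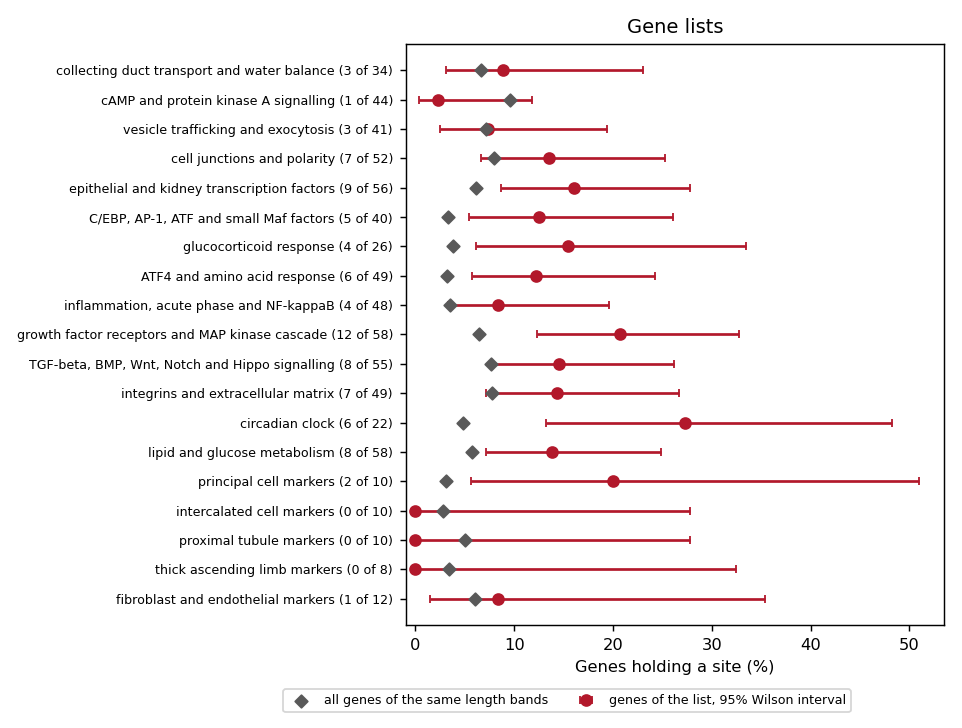
Percent of the genes over 2000 bp in each list that held a site (points, with 95% Wilson intervals) and the percent of all genes in the same bands of length (diamonds); the counts stand beside each name. The point is farthest to the right for the circadian clock, 27.3%, and the cAMP list, 2.27%, lies left of its diamond, which is inside the interval.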

How the data were processed

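The authors deposited a peak list for each antibody and treatment, 4 in all. The submitters' processing notes name BWA, SAMtools, MACS2, bedtools and the build mm10, and give no versions. The C/EBP beta lists give positions, a name and the authors' score per peak. Per the names in the deposited lists, peaks were those of replicate 1, called by MACS2 with q of 0.01, bandwidth 300 and 1 duplicate kept. How replicates were combined and the scale of the score are not given in the sources used here. CREB1 peaks come as positions alone. Sequencing depth is unknown.

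Positions were counted from 1. Overlap meant at least 1 bp. Genes were the 21631 protein-coding genes of the RefSeq table (GRCm38.p6) on 20 chromosomes, and strand came from the start windows, for 621 host genes. Members and the 19 gene lists, with 692 entries, were chosen with earlier results of these data known. The named genes were hosts of the 12 best scores, the 10 hosts with most sites, sites at CREB1 peaks, up to 5 hosts per list by best score, and those at the edges of the rule. Egfr, Per2 and Slc7a1 were added after their values were seen. One further gene list and 1 host gene are not reported here. With 1 list per group, no test was made. Wilson intervals at 95% cover counting alone. The steps were tested on simulated data. The planned search of whole peaks for motifs was replaced by the search of start windows. Python 3.11.15, pandas 2.3.3, numpy 2.4.6 and SciPy 1.17.1 were used.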

Additional observations from a re-analysis of the deposited data

How the results depend on the processing

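The 11 results summarised over all sites were recomputed under 9 alternatives, and 82 of 99 values stayed close to the reported ones. The alternatives for the first 50% of the gene and for the motif share were added after seeing the data. The share of dDAVP-only peaks in gene bodies was 44.3% with an end zone of 500 bp, 36.8% with 2000 bp and 31.7% with 5000 bp. Hosts with a CREB1 peak at an end numbered 37 with 500 bp. The first 25% of the gene's length held 35.4% with 500 bp and 23.2% with 5000 bp. Sites at a CREB1 peak numbered 4 with 2000 bp, 2 with 5000 bp and 4 without the gene models. The upper 50% of peaks by score left 375 sites, with a median score of 325, a median width of 304 bp and 37.8% of dDAVP-only peaks in gene bodies. It left 350 hosts, 28 with 2 or more sites, 13 with a CREB1 peak at an end, and 3 sites at a CREB1 peak, as fewer peaks entered. A vehicle peak within 500 bp, an overlap of 50%, whole peaks inside the gene and a width of at least 100 bp moved none of the 11. The whole-peak and width settings could not change the sites and show no robustness, though their values count among the 82. The sites were 127 to 512 bp wide, with centres over 1000 bp from every gene end. No paired analysis was possible because there is 1 list per antibody and treatment and how replicates entered it is not stated, and for the same reason no replicate could be left out. Unknown depth limits every absence from the vehicle list.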

Other observations

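A run of 6 sites lay within 30.5 kb of chromosome 6, each in a different RefSeq gene model, and it was the one run of at least 4 sites in which neighbours stood within 10 kb. From lower to higher position the hosts were Gm40369, Gm40367, Gm40365, Gm36327, Gm40364 and Gm40363, with scores of 170, 116, 199, 167, 167 and 172. The spacings were 8.67, 8.63, 4.33, 4.34 and 4.33 kb, so the larger ones are close to 2 times the smaller. The first site was 32.5 bp from an end of Rn4.5s, a 4.5S RNA gene, and 3 of the 6 overlapped CREB1 vehicle peaks. Whether reads here map to near-identical copies was not tested, and the values of these 6 sites are uncertain for that reason.

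Ends of noncoding genes lay within 1000 bp of 41 sites (4.62%, 3.43 to 6.21), 33 of them of long noncoding RNAs. At dDAVP-only peaks of gene ends the share was 13.6%, between genes within 50 kb 11.6%, and farther away 5.69% (3.42 to 9.32). For gene body peaks found in both lists it was 2.56% (0.706 to 8.88), so a low share was not particular to the sites. By chromosome the sites ranged from 0.204 per Mb of gene interior on X to 1.96 on chromosome 19. Other dDAVP-only peaks had 0.0791 per Mb outside gene interiors on X and 2.27 on chromosome 19, so both classes were sparsest and densest on the same chromosomes.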
